A study of Homo sapiens with 6 samples.

Results

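Transcript levels of 10 transcription factors of the stem cell and myeloid program were examined in control and ARID1A-deficient NB4 cells, a human acute promyelocytic leukemia line. The genes were SPI1, RUNX1, RUNX3, CBFB, GFI1, MYB, IRF8, IKZF1, ETV6 and FLI1. They were chosen by name, with earlier results of these data known, and make up 10 of the 52992 genes in the gene table. All 10 passed the filter on low counts and were among the 18514 genes tested. RNA-sequencing was performed on 3 groups with 2 samples each, namely control cells with an sgRNA against lacZ (LacZ, labelled WT), and cells with sg1 or sg5 against ARID1A. ARID1A belongs to the SWI/SNF complex, which remodels chromatin. Every group, the control included, carried Cas9 and an inducible sgRNA and was kept in doxycycline (1 µg/ml, 7 days). Per the methods, the drug was then withdrawn for a time before RNA was isolated. The cells were a sorted pool of transduced cells of a single line and not clones, so that cells without an edited allele may remain. The labels do not say that the 2 samples of a group came from separate cultures, and p-values measure the spread between these samples, which may be technical.

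Blood cell identity is set by a small number of transcription factors that act in combination on shared enhancers. PU.1, the product of SPI1, and the core binding factors, heterodimers of a RUNX protein with CBFβ, open and activate myeloid genes. GFI1 represses monocytic genes and favors granulocytes, whereas IRF8 favors monocytes and dendritic cells, and MYB sustains the proliferation of immature progenitors.

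Each library held between 46131178 and 54843745 estimated counts. On the first principal component of log2 CPM (counts scaled to a common library size by TMM factors), which held 34.4% of the variance, sg1 replicate 1 and sg5 replicate 2 stood apart from the other 4 samples. ARID1A transcript, at 155 and 191 CPM in LacZ, was at 211 and 191 CPM in sg1 and at 124 and 145 CPM in sg5. The targeted transcript was not lower in sg1 than in the control, and since an edit that disrupts the protein need not lower its transcript, these values do not check the knockout. Promyelocyte markers were abundant in all samples, with a summed level of 14023 to 17709 CPM, nearly all of it MPO, although the defining protease gene ELANE stayed under 1 CPM in each. The sum thus reflects MPO and says little of the other markers. All 5 tested promyelocyte markers had negative log2 fold changes in each comparison with LacZ (joined median -0.21). Of these, 2, AZU1 and CTSG, were at an unadjusted p under 0.05 in the joined comparison (edgeR, all genes: 7.21%). Monocyte markers summed to 39.5 and 30.1 CPM in LacZ, 33.0 and 24.1 CPM in sg1, and 28.6 and 21.3 CPM in sg5. Both sg5 sums were below both controls, and those of sg1 overlapped them. All 3 tested monocyte markers had negative log2 fold changes in each comparison with LacZ (joined median -0.71), with 0 at an unadjusted p under 0.05. The summed levels were at most 0.128 CPM for erythroid cells and at most 0.436 CPM for stem cells, with CD34 at or near 0. T cell markers summed to 5.10 and 5.81 CPM in LacZ and to between 6.69 and 7.58 CPM in the ARID1A-deficient samples, and B cell markers to 6.62 and 7.99 CPM against 11.2 to 12.5 CPM, with most of each sum from CD3D and CD79A, respectively. The eosinophil, basophil and mast cell list was at 91.1 and 99.5 CPM in LacZ and between 32.3 and 37.2 CPM in the ARID1A-deficient samples, and PRG2, HDC and EPX fell in the joined test. The megakaryocyte list was at 12.4 and 16.4 CPM in LacZ and between 3.09 and 3.75 CPM in the others, nearly all of it ITGA2B, which fell, with PF4 and GP9 at 0. In bulk RNA, fewer cells of a type and less RNA per cell cannot be told apart. The part of these markers in the results on the 10 factors was not tested.

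In LacZ cells, the members spanned a 9.15-fold range of TPM, a level scaled by transcript length that allows genes to be compared. SPI1 was the highest, at 229 ± 5.8 TPM (SD, n = 2), followed by MYB at 181 ± 18.8 TPM and GFI1 at 107 ± 11.7 TPM. These 3 genes were separated from one another and from the rest, since no sample of one overlapped the next. CBFB (84.0 ± 3.8 TPM), IKZF1 (80.1 ± 7.2 TPM), RUNX1 (72.0 ± 12.2 TPM) and FLI1 (67.8 and 67.7 TPM) formed a middle range in which each neighbour overlapped the next. RUNX3 followed at 35.7 ± 3.9 TPM, and IRF8 (25.4 ± 2.2 TPM) and ETV6 (24.98 ± 1.2 TPM) overlapped at the bottom. Even ETV6 was above 71.8% of the tested genes. In sg5 cells GFI1 was in the fifth place at 71.1 ± 8.9 TPM, below CBFB (92.5 ± 10.4 TPM) and IKZF1 (74.1 ± 1.3 TPM), although its samples (77.4 and 64.8 TPM) overlapped those of IKZF1 (75.0 and 73.2 TPM), while SPI1 and MYB kept the first and the second place in all 3 groups.

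**Figure D1:**
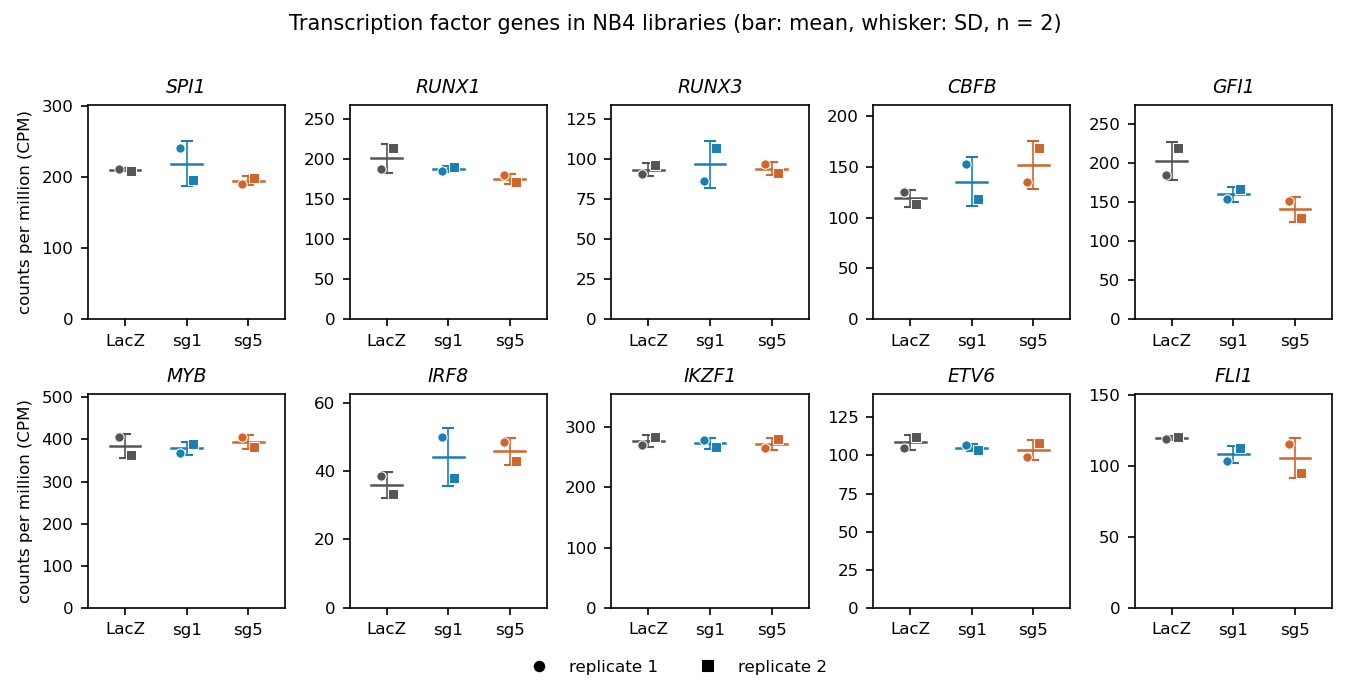
Normalised counts (CPM) after TMM scaling for each of the 10 members, a panel for each gene with its own linear axis from 0. Points are the samples (circle, replicate 1; square, replicate 2), bars the group means and whiskers the SD (n = 2). GFI1 lay lower in all 4 ARID1A-deficient samples (129 to 167 CPM) than in both LacZ samples (185 and 219 CPM), whereas the groups overlapped for RUNX3, MYB, IKZF1 and ETV6.

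To test whether ARID1A deficiency was accompanied by a change of these factors, sg1 and sg5 were each compared with LacZ, and then joined, as in the genotype label. The comparisons share the same 2 LacZ samples and are not independent of each other. With edgeR's quasi-likelihood test, 0 of the 10 members passed a false discovery rate (FDR) of 0.1 in sg1 (all genes: 0.0378% called, 0.0108% higher and 0.027% lower). In sg5 it was 0 (0.0972%, of which 0.0324% higher and 0.0648% lower), and in the joined comparison 0 (0.167%, of which 0.0432% higher and 0.124% lower). Before adjustment, a p under 0.05 was reached by GFI1 in sg1 (all genes: 4.15%), by GFI1 in sg5 (7.47%), and by GFI1 and IRF8 in the joined comparison (7.21%). DESeq2 called 0 members in sg1 (all genes: 0.501%), 1 in sg5 (1.14%), which was GFI1, and 0 in the joined comparison (1.46%). The median log2 fold change of the members was -0.02 in sg1, -0.05 in sg5 and -0.03 in the joined comparison, beside 0.00, -0.01 and -0.01 over all genes tested. In the plain order of the samples, GFI1 and FLI1, 2 of the 10 members, were lower in all 4 ARID1A-deficient samples than in both LacZ samples, a pattern shown by 10.4% of all genes, and 0 were higher in all 4 (9.72% of all genes, or 20.1% in either direction). Both sg5 samples lay outside both LacZ samples for 6 members (all genes: 42.2%), and both sg1 samples for GFI1 and FLI1 (34.2%).

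**Figure D2:**
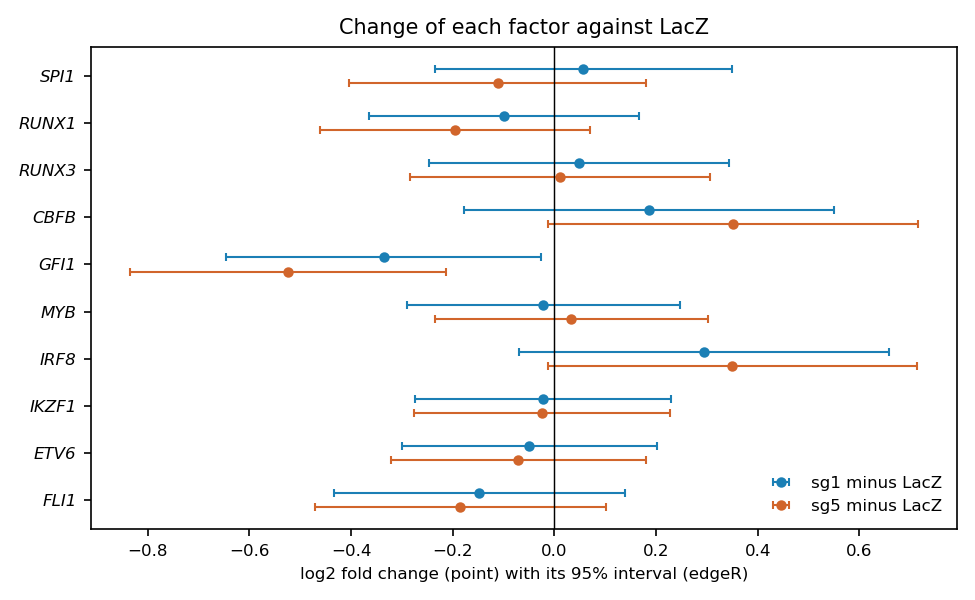
Log2 fold change against LacZ for each member in sg1 and sg5, with 95% intervals from the edgeR fit of all 18514 genes. The vertical line marks no difference. Both intervals of GFI1 (-0.65 to -0.03 and -0.83 to -0.21) lie below 0, although 0 members passed the FDR of 0.1.

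GFI1, a zinc finger repressor that recruits the KDM1A and RCOR1 histone demethylase complex, had the largest difference of the 10. It lies at chr1:92474762-92486876 on the minus strand (GRCh38, GENCODE 29). Its level was 185 and 219 CPM in LacZ, 153 and 167 CPM in sg1, and 152 and 129 CPM in sg5. All 4 ARID1A-deficient samples were thus below both controls, and the 2 sg5 samples were also below both sg1 samples. For either guide, the lower GFI1 value was that of the library that stood apart on the first component. The log2 fold change was -0.34 ± 0.14 (SE) in sg1 (95% interval -0.65 to -0.03, adjusted p = 0.993, edgeR). In sg5 it was -0.52 ± 0.14, that is 0.695 of the control level (95% interval -0.83 to -0.21, adjusted p = 0.446). In the joined comparison it was -0.43 ± 0.12 (95% interval -0.69 to -0.17, adjusted p = 0.363). With DESeq2, the sg5 value was -0.51 with an adjusted p of 0.0862, and without the 2 libraries that stood apart it was -0.41 with an adjusted p of 0.0104 (edgeR), where the lone sample left in each ARID1A-deficient group was assumed to vary like LacZ. Leaving out a single library at a time gave values from -0.45 to -0.21 in sg1 and from -0.63 to -0.39 in sg5. Over all alternatives the adjusted p of GFI1 in sg5 ran from 0.0104 to 1.00, and its direction stayed the same in each.

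Counts of GFI1 were assigned mostly to a pair of transcripts with different annotated starts and the same end, so their values are not independent readings. GFI1-203 and GFI1-202 held 43.5% and 51.8% of the counts in sg1 replicate 1, and 57.9% and 37.9% in sg5 replicate 2. GFI1-203, which starts at position 92486071 of chromosome 1, had 95.8 and 107 CPM in LacZ, 66.6 and 83.2 CPM in sg1, and 79.4 and 74.8 CPM in sg5. All 4 ARID1A-deficient samples were again below both controls. GFI1-202, which starts at position 92483954, had 79.2 and 96.7 CPM in LacZ, 79.3 and 74.4 CPM in sg1, and 66.1 and 48.96 CPM in sg5, so that sg5 but not sg1 lay apart from LacZ. Reads that both transcripts share were split between them by a model, and these transcript values were not tested.

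Promoter windows from RefSeq (GRCh38.p14), 250 bases before to 50 after a start, were found for 7 of the 10 members, 13 windows in all. They were searched on both strands for the RUNX core TGTGGT (reverse complement ACCACA) and for the PU.1 site AGGAAGT (reverse complement ACTTCCT), whose letters do not contain each other. RUNX letters occurred in 4 of the 13 windows, beside 13.1% of 35116 windows of all genes, and PU.1 letters in 2, beside 8.24%. The bases before 2 starts are shown, because GFI1 had the largest difference and its main start holds both motifs, and because the proximal start of RUNX1 carried most of its counts. They are chr1:92486100-92486349 for GFI1 and chr21:34888700-34888949 for RUNX1, both read 5′ to 3′ on the minus strand, and capitals mark the motif letters.
GFI1: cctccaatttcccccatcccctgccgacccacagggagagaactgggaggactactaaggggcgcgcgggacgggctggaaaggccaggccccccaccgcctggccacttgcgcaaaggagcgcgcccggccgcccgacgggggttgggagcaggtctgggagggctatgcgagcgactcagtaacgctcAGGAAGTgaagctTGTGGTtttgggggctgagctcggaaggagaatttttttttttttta
RUNX1: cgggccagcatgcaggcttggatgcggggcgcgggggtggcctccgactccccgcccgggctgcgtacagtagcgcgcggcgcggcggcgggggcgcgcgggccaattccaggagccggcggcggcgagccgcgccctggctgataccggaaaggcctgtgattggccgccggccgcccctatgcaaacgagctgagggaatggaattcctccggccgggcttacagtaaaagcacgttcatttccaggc
In GFI1, AGGAAGT was found at position 191 and TGTGGT at position 204 of the window, counted from its 5′ end. The RUNX1 window held neither motif, and the windows of the other GFI1 starts, at chr1:92483765-92484064 and chr1:92486876-92487175, held neither as well. A match of letters is not a bound site, and binding was not measured.

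The 3 tested genes whose log2 CPM followed that of GFI1 most closely over the 6 samples were PITX1 (Pearson r = 0.998), PYGB (0.997) and SOX18 (0.996). PITX1 had 22.3 and 25.4 CPM in LacZ, 19.5 and 20.5 CPM in sg1, and 18.9 and 16.7 CPM in sg5. These are the closest of 18514 genes in 6 samples that share their groups and scaling, and they describe the pattern only.

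IRF8, the interferon regulatory factor that directs monocyte and dendritic cell fate, lay in the opposite direction. It lies at chr16:85898803-85922609 on the plus strand. Its level was 38.6 and 33.1 CPM in LacZ, 49.97 and 38.01 CPM in sg1, and 48.6 and 42.9 CPM in sg5. Both sg5 samples were above both controls, whereas sg1 replicate 2 was just below LacZ replicate 1. On the log2 scale the difference from LacZ was 0.29 ± 0.16 in sg1 (adjusted p = 0.993), 0.35 ± 0.16 in sg5 (adjusted p = 0.681) and 0.32 ± 0.14 in the joined comparison (95% interval 0.00 to 0.64, adjusted p = 0.687, edgeR). Without the 2 libraries that stood apart it was 0.44 in sg5 with an adjusted p of 0.0186, on a lone sg5 sample, but 0.08 in sg1, and over all alternatives the adjusted p in sg5 ran from 0.0186 to 1.00. The leading transcript IRF8-201 carried 73.4% and 78.7% of the counts in the controls, 74.3% and 74.4% in sg1, and 90.5% and 82.5% in sg5. Its share was higher in both sg5 samples than in the others, and IRF8 showed almost no difference per length there, at 25.4 TPM in LacZ and 26.2 TPM in sg5. An edgeR fit with a length offset gave a log2 fold change of 0.10 in sg5, in place of 0.35.

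SPI1, which encodes the ETS factor PU.1, lies at chr11:47354860-47378576 on the minus strand. Its level was 212 and 209 CPM in LacZ, 241 and 196 CPM in sg1, and 190 and 199 CPM in sg5. The sg1 samples lay on either side of the controls, and both sg5 samples lay below them. The log2 fold change was 0.06 ± 0.13 in sg1 (95% interval -0.24 to 0.35) and -0.11 ± 0.13 in sg5 (95% interval -0.40 to 0.18). SPI1-202 carried 65.5% to 71.7% of its counts and SPI1-201 carried 23.8% to 28.6%, with both starts within 500 bases of each other.

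Of the core binding factor genes, RUNX1, a DNA-binding subunit needed for the emergence of blood stem cells, lies at chr21:34787801-36004667 on the minus strand. Its level was 188 and 214 CPM in LacZ, 184 and 190 CPM in sg1, and 180 and 171 CPM in sg5. Both sg5 samples were below the controls, and sg1 replicate 2 was above LacZ replicate 1. On the log2 scale the difference from LacZ was -0.10 ± 0.12 in sg1 and -0.20 ± 0.12 in sg5 (95% interval -0.46 to 0.07, adjusted p = 0.707, edgeR). Per length the difference was wider, at 63.4 and 80.6 TPM in LacZ, 57.9 and 62.3 TPM in sg1, and 50.3 and 45.3 TPM in sg5, which left all 4 ARID1A-deficient samples below both controls. The edgeR fit with a length offset gave -0.54 in sg5, with an adjusted p of 0.443, the lowest of a range up to 1.00 over the alternatives.

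The wider gap of RUNX1 in TPM went with a shift in the transcripts that the counts were assigned to. RUNX1-202, from the proximal start at position 34888690 of chromosome 21, carried 73.9% and 68.8% of the counts in the controls, 74.2% and 77.8% in sg1, and 82.8% and 82.7% in sg5. Transcripts from the distal start cluster, at positions 35049270 to 35049344, had 16.7 and 25.5 CPM in LacZ, 17.1 and 14.96 CPM in sg1, and 9.62 and 8.93 CPM in sg5. The low sg5 values of this cluster came from a single transcript, RUNX1-216, which is annotated as a target of nonsense-mediated decay. It had 10.2 and 21.1 CPM in LacZ, 11.1 and 9.30 CPM in sg1, and 3.56 and 2.22 CPM in sg5. The 4 protein-coding transcripts of the distal cluster together had 6.45 and 4.38 CPM in LacZ, 6.06 and 5.67 CPM in sg1, and 6.06 and 6.72 CPM in sg5, and these values overlapped between sg5 and LacZ. In the same samples, all transcripts of the proximal start together stayed at 156 and 168 CPM in LacZ and at 160 and 152 CPM in sg5. Within that start the shorter protein-coding RUNX1-203 held a smaller share with sg5 (6.35% and 6.19%) than with LacZ (9.34% and 9.69%). Its sg1 shares were 9.45% and 5.61%. RUNX1-205, protein-coding with a separate start, was also lower with sg5 (3.97 and 5.57 CPM) than with LacZ (8.42 and 11.8 CPM). The sg1 values of RUNX1-205 lay between these, at 6.90 and 7.83 CPM. The mean effective length of RUNX1 was 3741 and 3270 bases in LacZ and 4440 and 4507 bases in sg5. These shares are estimates from reads that transcripts have in common and were not tested.

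**Figure D3:**
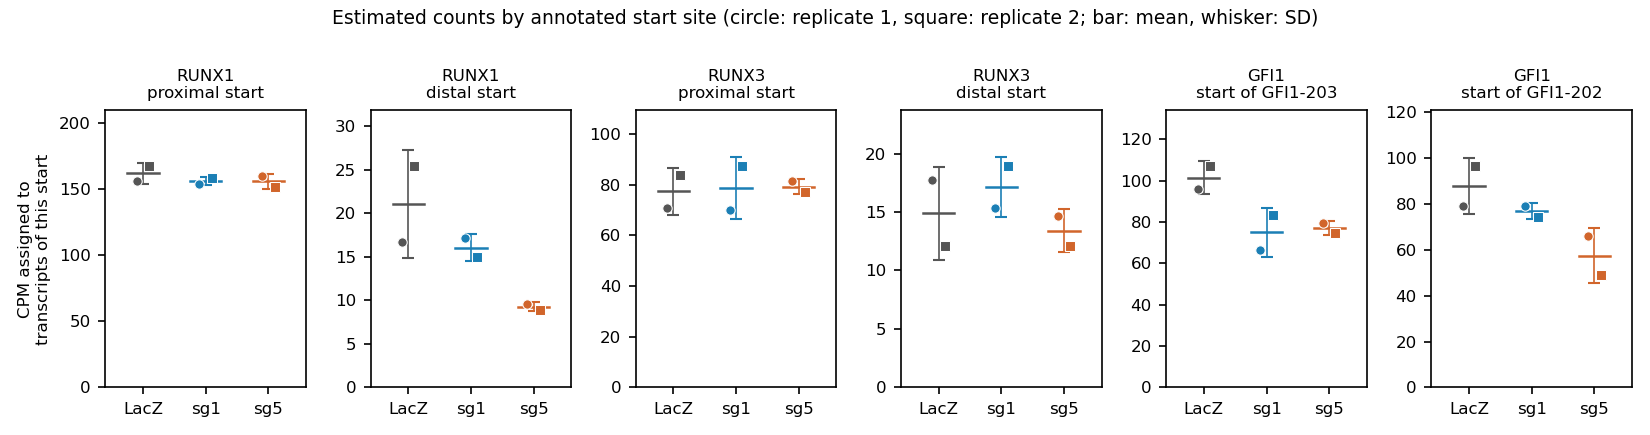
Normalised counts (CPM) assigned to annotated starts of RUNX1 (proximal, distal), RUNX3 (proximal, distal) and GFI1 (GFI1-203, GFI1-202), on linear axes from 0. Points are the samples, bars the group means and whiskers the SD (n = 2). The distal RUNX1 cluster was lowest in both sg5 samples (9.62 and 8.93 CPM), where RUNX1-216 was at 3.56 and 2.22 CPM while the protein-coding transcripts of the cluster overlapped those of LacZ, and GFI1-203 was lower in all 4 ARID1A-deficient samples than in both LacZ samples.

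RUNX3, best known for its roles in lymphocytes, lies at chr1:24899511-24965121 on the minus strand. Its level was 90.7 and 96.3 CPM in LacZ, 86.4 and 107 CPM in sg1, and 96.97 and 91.3 CPM in sg5, and the groups overlapped. The log2 fold change was 0.05 ± 0.13 in sg1 (95% interval -0.25 to 0.34) and 0.01 ± 0.13 in sg5 (95% interval -0.28 to 0.31). RUNX3-201, from the proximal start at position 24929877 of chromosome 1, carried 78.1% to 87.2% of the counts, and the distal cluster at positions 24964984 to 24965121 carried 12.6% to 19.6%.

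CBFB encodes CBFβ, the partner subunit that stabilizes RUNX proteins on DNA, and lies at chr16:67029116-67101058 on the plus strand. Its level was 125 and 113 CPM in LacZ, 153 and 119 CPM in sg1, and 135 and 169 CPM in sg5. The highest values were those of sg1 replicate 1 and sg5 replicate 2, the same 2 libraries that stood apart on the first component. On the log2 scale the difference from LacZ was 0.19 ± 0.16 in sg1 and 0.35 ± 0.16 in sg5 (95% interval -0.01 to 0.71, adjusted p = 0.681, edgeR). Without these libraries it was -0.01 in sg1 and 0.18 in sg5. CBFB-201 and CBFB-202 carried 43.6% to 56.9% and 31.6% to 46.5% of the counts. In TPM the joined difference was smaller, at a log2 ratio of 0.13.

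MYB, the progenitor factor that is lowered as myeloid cells mature, was the member with the highest counts, and lies at chr6:135181315-135219173 on the plus strand. Its level was 406 and 364 CPM in LacZ, 369 and 390 CPM in sg1, and 406 and 382 CPM in sg5. All ARID1A-deficient samples lay within or at the edge of the LacZ range. The log2 fold change was -0.02 ± 0.12 in sg1 (95% interval -0.29 to 0.25) and 0.03 ± 0.12 in sg5 (95% interval -0.24 to 0.30). MYB-205 carried 52.6% to 62.7% of the counts and MYB-209 carried 14.04% to 25.4%.

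IKZF1 encodes Ikaros, a zinc finger factor of lymphoid and myeloid progenitors, and lies at chr7:50304068-50405101 on the plus strand. Its level was 270 and 283 CPM in LacZ, 279 and 266 CPM in sg1, and 265 and 279 CPM in sg5. This was the narrowest spread of the 10, with a log2 fold change of -0.02 ± 0.11 in either comparison and 95% intervals of -0.27 to 0.23 in sg1 and -0.28 to 0.23 in sg5. IKZF1-201 carried 38.4% to 49.9% of the counts and IKZF1-202 carried 28.1% to 37.0%.

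ETV6 and FLI1 are ETS family factors, the former a repressor needed for adult stem cells and the latter an activator in stem cells and megakaryocytes. ETV6, at chr12:11649854-11895402 on the plus strand, had 105 and 112 CPM in LacZ, 107 and 103 CPM in sg1, and 99.0 and 108 CPM in sg5. The groups overlapped, and the log2 fold change was -0.05 ± 0.11 in sg1 (95% interval -0.30 to 0.20) and -0.07 ± 0.11 in sg5 (95% interval -0.32 to 0.18). ETV6-202 carried at least 99.2% of its counts in every sample. FLI1, at chr11:128686535-128813267 on the plus strand, had 119 and 120 CPM in LacZ, 104 and 112 CPM in sg1, and 115 and 95.2 CPM in sg5. All 4 ARID1A-deficient samples were below both controls, but the lowest of them was sg5 replicate 2, followed by sg1 replicate 1, the libraries that stood apart. On the log2 scale the difference from LacZ was -0.15 ± 0.13 in sg1 and -0.19 ± 0.13 in sg5 (95% interval -0.47 to 0.10, adjusted p = 0.729, edgeR). Without these 2 libraries it was -0.09 in sg1 and -0.06 in sg5. FLI1-203, which the annotation marks as a target of nonsense-mediated decay, carried 81.9% to 84.7% of the counts. SENCR, an antisense gene that overlaps FLI1 in 162 bases, had at most 1.31% of the counts of FLI1, and the files do not show that strand was used.

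Whether the 2 guides differed was tested directly. With edgeR, 0 of the 10 members passed an FDR of 0.1 between sg1 and sg5 (all genes: 0.0054% called), 0 at an unadjusted p under 0.05 (all genes: 1.38%), and 0 with DESeq2 (all genes: 0.0152%). The widest differences were those of GFI1, 0.19 ± 0.14 higher in sg1 on the log2 scale (95% interval -0.12 to 0.50), SPI1, 0.17 ± 0.13 higher in sg1 (95% interval -0.12 to 0.46), and CBFB, -0.16 ± 0.16 (95% interval -0.53 to 0.20). These intervals leave room for differences in either direction. ARID1A itself was 0.58 ± 0.14 higher in sg1 than in sg5, with a 95% interval of 0.25 to 0.91 that lies above 0. It did not pass the FDR of 0.1 either (adjusted p = 1.00, edgeR).

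Relatives, partners and known targets of the members were read from hand-written lists of 87 genes, of which 81 were tested. The lists were written with earlier results of these data known, so counts within them only describe these genes. Of these 81, 0 passed an FDR of 0.1 in sg1, sg5 or the joined comparison with edgeR. At an unadjusted p under 0.05, 6 were higher and 7 lower in sg1 (all genes: 4.15%), and 5 were higher and 10 lower in sg5 (7.47%). In the joined comparison this held for 7 with higher and 10 with lower levels (all genes: 7.21%). DESeq2 called 8 of the 77 it could adjust in the joined comparison, 4 higher (CIITA, ETS2, KLF4, LYZ) and 4 lower (AZU1, CTSG, EGR1, RCOR1), where it called 1.46% of all genes. It called 2 in sg1 (all genes: 0.501%) and 5 in sg5 (1.14%). The median log2 fold change of the 81 genes was 0.02, and several genes stand in more than a single list.

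Among relatives and partners, the gene with the smallest unadjusted p over the 3 comparisons with LacZ was taken from each list, and its fold change is given for the joined comparison. RCOR1, the corepressor that joins GFI1 to KDM1A, had 91.4 and 125 CPM in LacZ, 72.9 and 90.1 CPM in sg1, and 71.2 and 54.9 CPM in sg5, all 4 below both controls (joined log2 fold change -0.60, adjusted p = 0.363, edgeR). Within each guide the lower RCOR1 value was that of the library that stood apart on the first component. Of the other 4 genes of that list, GFI1B and HDAC2 included, 0 passed an unadjusted p under 0.05, and KDM1A had 175 and 172 CPM in LacZ against 170 to 210 CPM. ETS2, an ETS family activator, had 38.8 and 39.2 CPM in LacZ and 48.7 to 51.9 CPM in the ARID1A-deficient samples, which did not overlap (joined 0.37, adjusted p = 0.349). RUNX2 (joined -0.40, adjusted p = 0.742), IRF1 (0.22, 0.729), IKZF2 (0.28, 0.795) and MYBL1 (0.02, 0.987) were the genes so taken from the lists of RUNX partners, IRF, Ikaros and MYB factors.

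In the list of other stem and myeloid factors, 5 of 23 genes were below an unadjusted p of 0.05 in the joined comparison. Of these, 1 had a higher level and 4 had lower ones. Over all 18514 genes this held for 7.21%, with 535 higher and 799 lower. EGR1, an immediate early factor of the monocytic pathway, had 11.7 and 21.5 CPM in LacZ, 6.66 and 11.6 CPM in sg1, and 6.14 and 4.37 CPM in sg5 (joined -1.26, adjusted p = 0.322, edgeR). All 4 ARID1A-deficient samples lay below both controls, by a small margin in sg1 replicate 2. Within each guide the lower EGR1 value was that of the library that stood apart on the first component.

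The target lists differed in the direction of their values. All 6 of the tested IRF8 targets had positive fold changes in sg1, in sg5 and in the joined comparison. The joined median was 0.45 beside -0.01 over all genes, of which 9024 of 18514 were positive. In the joined comparison 3 of 6, CD74, KLF4 and CIITA, were below an unadjusted p of 0.05 (all genes: 7.21%). CTSC, CTSS and BCL6 were at 0.12, 0.16 and 0.16 joined. The list was written with earlier results of these data known, so the shared direction is a description only. CIITA, the activator of MHC class II genes, had 3.15 and 2.97 CPM in LacZ and 4.73 to 5.54 CPM in the ARID1A-deficient samples (joined 0.73, adjusted p = 0.349, edgeR), and CD74 and KLF4 also were higher in all 4 samples. KLF4, a monocytic factor listed under both GFI1 and IRF8, had 7.94 and 7.38 CPM in LacZ, 16.3 and 11.7 CPM in sg1, and 10.3 and 14.6 CPM in sg5 (joined 0.78, adjusted p = 0.349). Its highest values were those of sg1 replicate 1 and sg5 replicate 2, the libraries that stood apart on the first component. Of 8 listed targets of GFI1, mainly a repressor, 4 had positive and 4 negative joined fold changes, and CSF1 had 3.40 and 2.44 CPM in LacZ against 1.29 to 1.80 CPM (joined -0.90, adjusted p = 0.363). IRF8 and KLF4 are among those 8.

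Of 15 tested PU.1 and RUNX1 targets, 10 had negative joined fold changes and the median was -0.17. Over all genes, 9490 of 18514 were negative and the median was -0.01. Of the 15 targets, 5 are also in the promyelocyte marker list. CTSG, the gene of the primary granule protease cathepsin G, had 92.9 and 90.7 CPM in LacZ, 59.2 and 70.6 CPM in sg1, and 69.0 and 57.0 CPM in sg5 (joined -0.52, adjusted p = 0.265, edgeR). AZU1 and CSF3R were also lower in all 4 samples, whereas LYZ, the lysozyme gene, had 131 and 128 CPM in LacZ against 182 to 368 CPM (joined 1.06, adjusted p = 0.356). The lowest CTSG and the highest LYZ values were those of sg1 replicate 1 and sg5 replicate 2, the libraries that stood apart. Of 5 tested MYB targets, KIT had the smallest p, but it had at most 0.304 CPM in any sample and is too low to read.

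**Figure D4:**
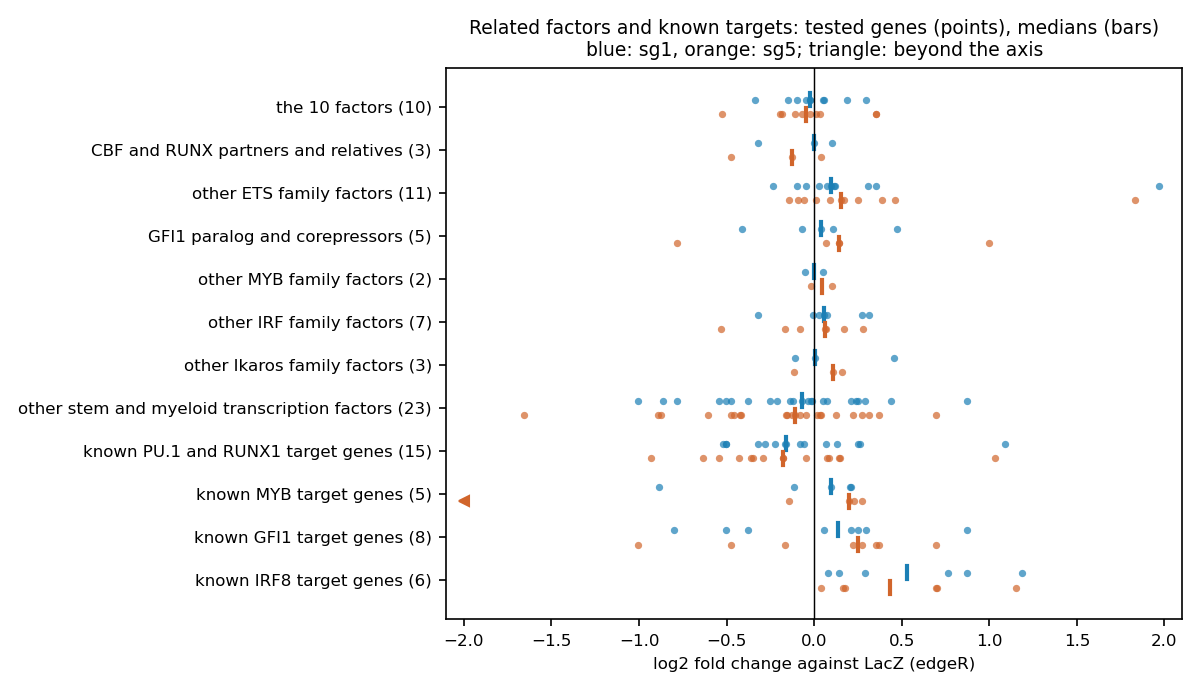
Log2 fold change against LacZ of the members and of each tested gene in the hand-written lists (rows, number of genes in brackets), in sg1 (blue) and sg5 (orange). Points are genes, short bars the medians, the vertical line marks no difference, and the triangle is KIT in sg5, beyond the axis end of -2. All 6 IRF8 targets lie to the right of 0 in both comparisons, and 10 of the 15 PU.1 and RUNX1 targets lie to the left. The lists were written with earlier results of these data known.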

How the data were processed

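RNA of 6 NB4 samples was sequenced, 2 each with LacZ sgRNA, ARID1A sg1 or ARID1A sg5, grouped by their titles. The deposited tables hold, for each transcript, an estimated count and TPM as the authors obtained them with kallisto, and the processing notes list kallisto, DESeq2 and hg19. The transcript set is not given for these human libraries in the sources used here, and the study names a kallisto version only for alignment to a mouse transcriptome. Estimated counts divide shared reads between transcripts by a model, so transcript values are less certain than gene values. Of 196354 transcripts, 181857 matched GENCODE 29 (GRCh38) by identifier and held 95.4% to 95.5% of the counts. They were summed to 52992 genes and rounded. Coordinates come from that match and not from the authors' tables. Promoter windows are those of RefSeq.

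Genes were tested with edgeR (4.0.16, in R 4.3.3) after filtering with filterByExpr (minimum count 10) and scaling by TMM, with the robust quasi-likelihood F-test on all 6 samples with group as the only term, and Benjamini-Hochberg adjustment over 18514 genes at an FDR of 0.1. Standard errors and 95% intervals came from the F statistic. The coefficient of variation common to all genes was 16.6%. CPM are scaled by TMM factors. The study used DESeq2 after a summary to genes with TxImport. As an alternative, DESeq2 (1.42.0) was run here on the summed and rounded counts without a length offset, so it need not equal the study's fit. Other alternatives changed the factors, the filter, the transcript length offset, the threshold, the samples, the unit and the replicate block, and left out each library. A crossed block and leaving out both libraries apart on the first component were chosen after seeing the data. The fits were tested on simulated data.

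The members and lists were chosen with earlier results of these data known. Named genes were the members, ARID1A, any listed related or target gene that passed an FDR of 0.1 and otherwise the one with the smallest p in each list, and the 3 genes closest to the member with the smallest joined p. Transcripts named were the leading one of each member and others with a mean share of at least 20% of its counts. AZU1, CSF1, CSF3R, LYZ, CD74, CTSC, CTSS, BCL6, KDM1A, GFI1B, HDAC2, RUNX1-203, RUNX1-205, RUNX1-216 and the marker genes CD3D, CD79A, PRG2, HDC, EPX, ITGA2B, MPO, ELANE, PF4, GP9 and CD34 were named after their values were seen.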

Additional observations from a re-analysis of the deposited data

How the results depend on the processing

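The count of members called moved from 0 to 1 in sg5 with DESeq2, and to 1 in sg5 and 1 in the joined comparison without the low-count filter and with a crossed replicate block. Without both libraries apart on the first component it was 2 in sg5 and 1 in the joined comparison, on 1 residual degree of freedom. All of these were GFI1, apart from IRF8 as the second one. The count stayed at 0 between sg1 and sg5, in sg1, and under every other alternative. The replicate block gave 0 members, with GFI1 at -0.52 in sg5 (adjusted p = 0.766). Same-numbered samples deviated together with r of 0.07, 0.01 and -0.21, so the numbers were not treated as pairs.

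Members with small differences changed sign under some alternatives. The cause was not tested. In the TPM ratio, RUNX3 was at -0.0079 in sg1, -0.0019 in sg5 and -0.0049 joined, and MYB at -0.0044 in sg5 and -0.030 joined. With a filter at a mean of 50 counts, MYB was at -0.0054 joined. Without both libraries apart, SPI1 was at -0.10, CBFB at -0.0064 and MYB at 0.019 in sg1. Leaving out 1 library at a time, the ranges in sg1, sg5 and joined were as follows. MYB ran from -0.10 to 0.058, from -0.036 to 0.12 and from -0.067 to 0.090. RUNX3 ran from -0.10 to 0.19, from -0.022 to 0.061 and from -0.040 to 0.11. IKZF1 ran from -0.062 to 0.019, from -0.069 to 0.031 and from -0.052 to 0.015. SPI1 ran from -0.10 to 0.21 in sg1 and from -0.10 to 0.053 joined, CBFB from -0.013 to 0.37 in sg1, and ETV6 from -0.14 to 0.0081 in sg5. GFI1, IRF8, RUNX1 and FLI1 kept their direction in every setting.

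The order of the members was the same per kilobase. Of the 10 members, 8 had a transcript with over 50% of the counts, and 5 by TPM shares.

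Counts over all genes (sg1, sg5, joined) were 7, 18 and 31 in the fit reported. They were 98, 186 and 230 with DESeq2, 345, 632 and 701 without the filter, 4, 15 and 19 at a mean of 50 counts, 1, 1 and 3 with the replicate block, 1, 1 and 5 with the block and length offset, 18 and 29 (sg1, sg5) with only the groups compared, 5, 12 and 12 at an FDR of 0.05, 1, 1 and 4 with unmatched transcripts kept, 59, 157 and 194 with the crossed block, and 424, 787 and 809 without both libraries. Leaving out 1 library gave 1 to 33, 0 to 78 and 3 to 193. With 2 samples a group, differences under the intervals given with each member could not be resolved.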
